A study of Bos taurus with 18 samples.

Results

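The let-7 family was represented by 9 mature miRNAs, bta-let-7a-5p, bta-let-7b, bta-let-7c, bta-let-7d, bta-let-7e, bta-let-7f, bta-let-7g, bta-let-7i and bta-miR-98, each taken by its name from the read counts deposited for every library. They were 9 of 824 miRNAs, to which the 966 listed names had been merged, and all 9 had reads in all 18 libraries. The 18 libraries are biopsies of rumen papillae, the finger-like folds that absorb the products of fermentation, from 9 Holstein cows that were cannulated and not in milk. Each cow ate forage only (FD) at first and grain later (HG, 65% concentrate). Of the cows 4 were given PHY and 5 were controls (CON), which gave 4 HG_PHY, 4 FD_PHY, 5 HG_CON and 5 FD_CON libraries. The labels explain neither what PHY stands for nor whether it was already fed when the FD_PHY biopsies were taken. They do not say either that libraries of 1 number come from 1 cow, and no library is tied to a cow by its label. Every forage biopsy preceded the grain biopsies, so that diet and time cannot be told apart.

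Small RNAs of this family were among the first miRNAs to be described, and the family is known from many tissues as a brake on growth. A guide strand is loaded into an Argonaute protein and pairs with messenger RNAs through its seed, bases 2 to 8 of the miRNA, which the let-7 members and bta-miR-98 share. In mammals LIN28 blocks the maturation of most let-7 precursors, mature let-7 rises as cells differentiate, and HMGA2, RAS and MYC transcripts are among the known targets. The opposite strand of each hairpin, the passenger, is usually degraded.

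The prefix bta marks a bovine name. The level of each member is given in CPM, raw counts scaled to a common library size by TMM, and mature miRNAs are close to 1 length, so that no scaling by length was made. bta-let-7a-5p averaged 40690.5 ± 9221 CPM (SD, n = 18) and ranked 6 among the 468 miRNAs tested. bta-let-7f followed with 33549 ± 5947 CPM and bta-let-7g with 22600 ± 2461 CPM (SD, n = 18 each). These 3 are the bulk of the family in papillae, and bta-let-7a-5p was above bta-let-7f in 18 of 18 libraries, as bta-let-7f was above bta-let-7g.

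bta-let-7b, with 11417 ± 2650 CPM, and bta-let-7i, with 8040 ± 1154 CPM, came next, and bta-let-7b was above bta-let-7i in 16 of 18 libraries. bta-miR-98 averaged 2203 ± 324 CPM, bta-let-7d 1873 ± 277 CPM, bta-let-7c 1096 ± 312 CPM and bta-let-7e 786 ± 234 CPM (SD, n = 18 each). Over 18 libraries the ranges of neighbours overlapped everywhere in this order except between bta-let-7g and bta-let-7b and between bta-let-7i and bta-miR-98. bta-miR-98 was above bta-let-7d in 17 of 18 libraries and bta-let-7c above bta-let-7e in 15 of 18. The coefficient of variation was highest for the 2 scarcest members, 29.7% for bta-let-7e and 28.5% for bta-let-7c. It did not follow the level further: it was 23.2% for bta-let-7b, 22.7% for bta-let-7a-5p and 17.7% for bta-let-7f, 14.8% for bta-let-7d, 14.7% for bta-miR-98 and 14.4% for bta-let-7i, and 10.9% for bta-let-7g. The highest library held 3.09 times the bta-let-7e of the lowest library, and 1.40 times the bta-let-7g.

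The abundant bta-let-7a-5p averaged 42925 ± 13177 CPM in HG_PHY and 38840 ± 11727 CPM in FD_PHY (SD, n = 4 each), and 36966 ± 7486 CPM in HG_CON and 44108 ± 5626 CPM in FD_CON (SD, n = 5 each). bta-let-7f averaged 35321 ± 9346 CPM in HG_PHY, 31190 ± 6937 CPM in FD_PHY, 31488 ± 4491 CPM in HG_CON and 36082 ± 2548 CPM in FD_CON. Both had a larger SD in the PHY groups than in the control groups, and the 4 groups overlapped. On forage the larger SD rested on FD_PHY 4, with 56181 CPM of bta-let-7a-5p and 41319 CPM of bta-let-7f. The other FD_PHY libraries ran from 30365 to 35011 CPM and from 25569.5 to 29059 CPM. bta-let-7b averaged 12242 ± 3021 CPM in HG_PHY, 11271 ± 3689 CPM in FD_PHY, 9858 ± 2060 CPM in HG_CON and 12434 ± 1878 CPM in FD_CON. bta-let-7d averaged 1954 ± 418 CPM in HG_PHY, 1762 ± 270 CPM in FD_PHY, 1776 ± 235 CPM in HG_CON and 1993 ± 193 CPM in FD_CON. For all 4 of these members FD_CON had the highest group mean, and HG_CON or FD_PHY the lowest.

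**Figure D1:**
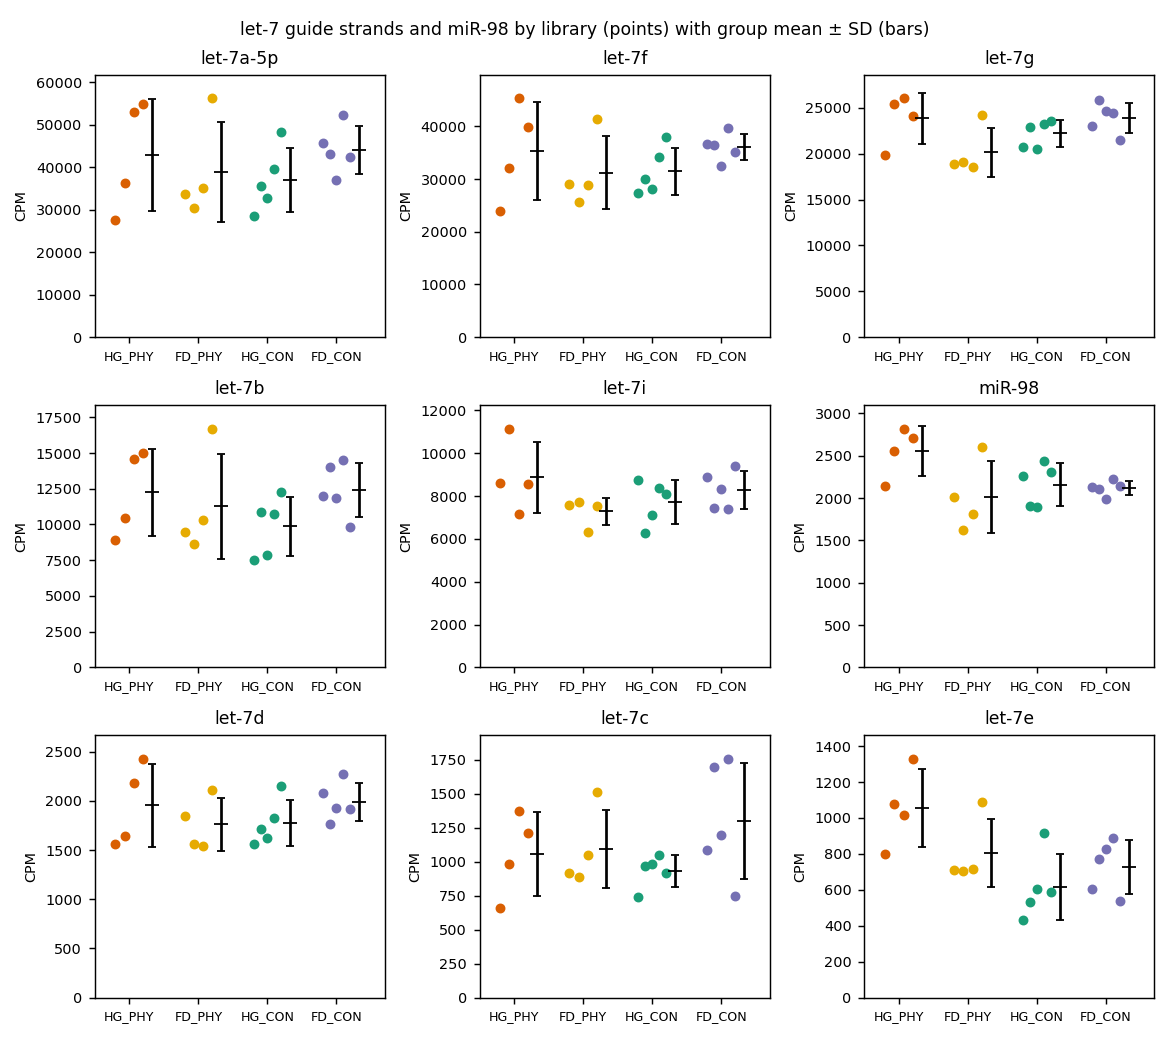
Level of the 9 members in CPM (TMM-scaled raw counts) in each of 18 libraries, in HG_PHY, FD_PHY, HG_CON and FD_CON. Points are libraries and bars are the mean ± SD of a group; bta-let-7g stays between 18595 and 26039.9 CPM, and the HG_PHY points of bta-let-7e lie mostly above its HG_CON points.

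Several members come from more than 1 gene, so that a mature count does not name the gene it came from. The RefSeq table of bovine genes holds 3 genes for let-7a, on chromosomes 15, 5 and 8, and 2 for let-7f, on chromosomes 8 and X. MIRLET7A-1, MIRLET7F-1 and MIRLET7D lie together on chromosome 8, MIRLET7A-3 and MIRLET7B on chromosome 5, and MIR98 and MIRLET7F-2 on chromosome X. Another 3 genes stand within 100 kb of the miR-99 or miR-100 and miR-125 genes, MIRLET7C on chromosome 1 with MIR99A and MIR125B-2, MIRLET7A-2 on chromosome 15 with MIR100 and MIR125B-1, and MIRLET7E on chromosome 18 with MIR99B and MIR125A. MIRLET7G on chromosome 22 and MIRLET7I on chromosome 5 have no let-7, miR-98, miR-99, miR-100 or miR-125 gene within that distance. Other miRNA genes were not looked for.

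The authors also deposited a count adjusted for multiple mapping, per the file headers, which is lower than the raw count where a name shares its reads. For bta-let-7b, bta-let-7d, bta-let-7e, bta-let-7g and bta-let-7i the median ratio of adjusted to raw count lay between 0.478 and 0.499. It was 0.255 for bta-let-7f, 0.167 for bta-let-7a-5p and 0.989 for bta-miR-98, which is listed here under its bovine name alone. bta-let-7c had a median of 0.390, with 0.350 to 0.412 over the libraries, the widest relative range of the 9. The mean ratio of bta-let-7c was 0.402 ± 0.008 in HG_PHY, 0.387 ± 0.010 in FD_PHY (SD, n = 4 each), 0.382 ± 0.014 in HG_CON and 0.378 ± 0.019 in FD_CON (SD, n = 5 each). The order between members changed with it: by adjusted counts bta-let-7g came before bta-let-7f and bta-let-7a-5p, and the other 6 kept their places. Among the members that moved, the ratio was lower the more genes RefSeq holds, 1 for let-7g, 2 for let-7f and 3 for let-7a. The adjusted order therefore need not be the order of the mature levels. bta-let-7b, bta-let-7d, bta-let-7g and bta-let-7i, each with 1 gene and with a human name beside the bovine one, had medians of 0.494 to 0.499. bta-let-7c, also with 1 gene and a human name, was lower, as was bta-let-7e at 0.478. The ratio therefore does not measure reads shared between members alone. let-7 members that differ by few bases can share reads, and their separate counts are uncertain where they do, to an extent that was not tested.

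Together the 9 bovine names made up 5.48% ± 0.72 of the adjusted counts of all 966 names (SD, n = 18), and counts given to human names of the same miRNAs are not in this share. The share was 6.11% ± 0.88 in HG_PHY and 5.19% ± 0.90 in FD_PHY (SD, n = 4 each), and 5.35% ± 0.54 in HG_CON and 5.32% ± 0.48 in FD_CON (SD, n = 5 each). Of the raw counts of the 824 miRNAs, the members held 12.2% ± 1.65 (SD, n = 18), with 13.2% in HG_PHY, 11.6% in FD_PHY, 11.9% in HG_CON and 12.0% in FD_CON. A read that members share can be counted more than once in raw counts, so that this is not a share of reads. The 4 groups overlapped on both measures. The highest raw share was 15.5%, in HG_PHY 3, and the lowest 9.85%, in FD_PHY 2.

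**Figure D2:**
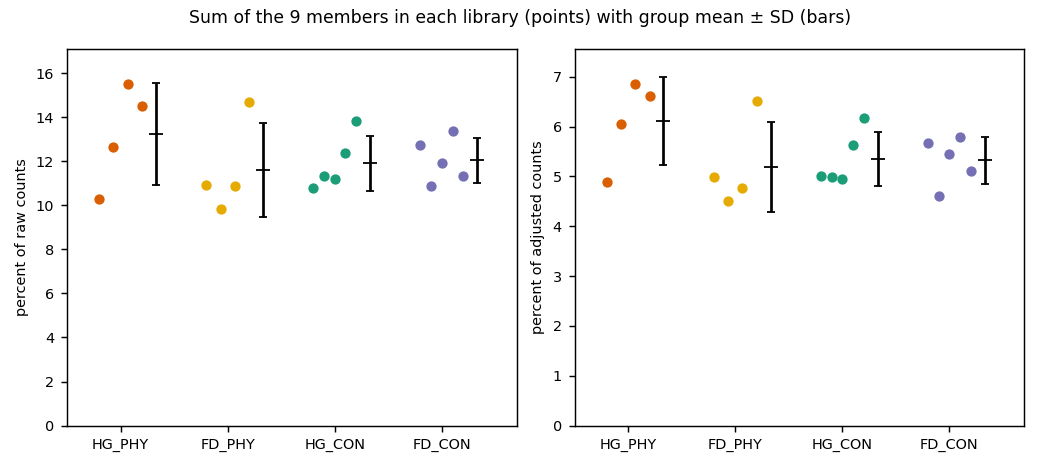
Sum of the 9 members in each of 18 libraries, as a percent of raw counts (left) and of adjusted counts (right), by group. Points are libraries and bars the mean ± SD; the HG_PHY group averages 6.11% of adjusted counts and the other groups between 5.19% and 5.35%, with overlapping points.

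The diet comparison over both arms asked whether members differed between grain and forage feeding. With edgeR, 0 of 9 members were called at an adjusted p under 0.05, where 0.214% of the 468 miRNAs tested were called, and 0 had an unadjusted p under 0.05, where 10.7% of all did (4.27% higher and 6.41% lower on grain). DESeq2 and limma-trend also called 0 members. On grain 4 members stood above 0 and 5 below (49.1% and 50.9% of all miRNAs), with a median log2 change of -0.01, the same as the -0.01 of all miRNAs. In bulk tissue, fewer cells of a type and less RNA per cell cannot be told apart.

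bta-miR-98 had the largest positive change in this comparison. Its lowest, median and highest values were 1888, 2309.9 and 2819 CPM in the grain libraries and 1618, 2103 and 2605 CPM in the forage libraries. The ranges overlapped, and 7 of 9 grain libraries were above the forage mean. The log2 change was 0.19 ± 0.09 (SE; edgeR, adjusted p = 0.465). bta-let-7c stood at the other end, with 661, 983 and 1368 CPM on grain and 747, 1084 and 1755 CPM on forage (lowest, median and highest of 9 libraries each). Its log2 change was -0.26 ± 0.16 (edgeR, adjusted p = 0.550), and 7 of 9 grain libraries were below the forage mean. bta-let-7a-5p, bta-let-7b, bta-let-7d and bta-let-7f stood between -0.11 and -0.01, and bta-let-7e, bta-let-7g and bta-let-7i between 0.07 and 0.09. With library totals as the only scaling, bta-let-7a-5p (0.040), bta-let-7d (0.084) and bta-let-7f (0.088) turned positive. The median of all miRNAs in this comparison then moved to 0.094, and these members stayed below it.

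In the PHY cows, 8 of 9 members were above 0 on grain (50.6% of all miRNAs were above 0 and 49.4% below), with a median log2 change of 0.18 against 0.01 over all. edgeR called 0 members, as 0% of the 468 were called, and 2 members, bta-miR-98 and bta-let-7g, had an unadjusted p under 0.05, where 7.05% of all did (3.63% higher and 3.42% lower on grain). Of the cell type markers, 0 were called in this comparison. Liver and columnar gut markers (miR-122, miR-192, miR-194 and miR-215) stood below 0 in 3 of 4 (median -0.04). Epithelial markers stood above 0 in 6 of 6 (median 0.12) and erythroid markers in 3 of 3 (0.05), while muscle markers stood below 0 in 4 of 4 (-0.41), endothelial markers in 2 of 2 (-0.24) and leukocyte markers in 4 of 5 (-0.21). An unadjusted p under 0.05 was reached by miR-143 (-0.42), miR-126-3p (-0.26), miR-142-3p (-0.52) and miR-142-5p (-0.41), all lower on grain. Their part in the members' values was not tested. Groups of 4 against 4 separated without overlap in 0 of 9 members and in 5.77% of all miRNAs. bta-miR-98 had 2142, 2556, 2819 and 2712 CPM in HG_PHY, against 2011, 1618, 1815 and 2605 CPM in FD_PHY. All 4 grain libraries were above the forage mean and 2 were above every forage library. FD_PHY 4 lay within the grain range, so that the groups overlapped. The log2 change was 0.35 ± 0.14 (SE; edgeR, adjusted p = 0.647), and 0.49 without FD_PHY 4, where its adjusted p was 0.144, also not below the threshold.

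bta-let-7g had 19872, 25483.5, 26039.9 and 24073 CPM in HG_PHY, against 18869.5, 19098, 18595 and 24182 CPM in FD_PHY. HG_PHY 1 was the low grain library and FD_PHY 4 the high forage library, and the groups overlapped. The log2 change was 0.24 ± 0.12 (SE; edgeR, adjusted p = 0.695). bta-let-7i had 8594, 11147, 7153 and 8582 CPM in HG_PHY, against 7597, 7699.9, 6338 and 7518 CPM in FD_PHY. Of the grain libraries 3 were above every forage library, and HG_PHY 3 was lower than 3 of the 4. Its log2 change was 0.28 ± 0.14 (SE; edgeR, adjusted p = 0.695). bta-let-7e had a log2 change of 0.39 ± 0.22, bta-let-7f 0.18 ± 0.17, bta-let-7d 0.15 ± 0.15, bta-let-7a-5p 0.14 ± 0.21, bta-let-7b 0.12 ± 0.21 and bta-let-7c -0.05 ± 0.24, all with an adjusted p of 0.810 or more.

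Most members shared the same high and low libraries in PHY. FD_PHY 4 held the highest level of its group for 8 of 9 members, bta-let-7i being the exception, and HG_PHY 1 the lowest of its group for 8 of 9. bta-let-7a-5p stood at 56181 CPM in FD_PHY 4, against 30365 to 35011 CPM in the other FD_PHY libraries. With FD_PHY 4 left out, bta-let-7a-5p had a log2 change of 0.37, bta-let-7b of 0.36 and bta-let-7e of 0.56 in PHY, and 0 members were called. Without FD_PHY 2 in its place, bta-let-7b was at -0.0032.

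In the control cows, 8 of 9 members were below 0 on grain (53.8% of all miRNAs were below 0 and 46.2% above), with a median log2 change of -0.20 against -0.02 over all. With library totals as the only scaling, which moved the median of all miRNAs in this comparison to 0.17, bta-let-7d (0.01), bta-let-7g (0.08) and bta-let-7i (0.08) were above 0. edgeR called 0 of 9 members, as 0% of the 468 were called, and 1 member, bta-let-7c, had an unadjusted p under 0.05, where 10.7% of all did (3.85% higher and 6.84% lower on grain). The groups of 5 separated in 0 of 9 members and in 1.07% of all. bta-let-7c had 742, 971, 983, 1048 and 915 CPM in HG_CON, against 1084, 1695, 1192, 1755 and 747 CPM in FD_CON. The grain libraries lay close together, and the forage libraries spread widely, with FD_CON 2 and FD_CON 4 high and FD_CON 5 near the lowest grain library. All 5 grain libraries were below the forage mean. The log2 change was -0.47 ± 0.22 (SE; edgeR, adjusted p = 0.430).

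bta-let-7b was at -0.33 ± 0.19, bta-let-7a-5p at -0.25 ± 0.19, bta-let-7e at -0.24 ± 0.20, bta-let-7f at -0.20 ± 0.16 and bta-let-7d at -0.17 ± 0.14 in CON. bta-let-7g and bta-let-7i were both at -0.10, and bta-miR-98 was at 0.03 ± 0.12. The smallest adjusted p of these 8 was 0.595. bta-miR-98 had 2257, 1905, 1888, 2437 and 2309.9 CPM in HG_CON, against 2128, 2103, 1986, 2222 and 2143 CPM in FD_CON. Its grain libraries lay on both sides of a narrow forage group.

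**Figure D3:**
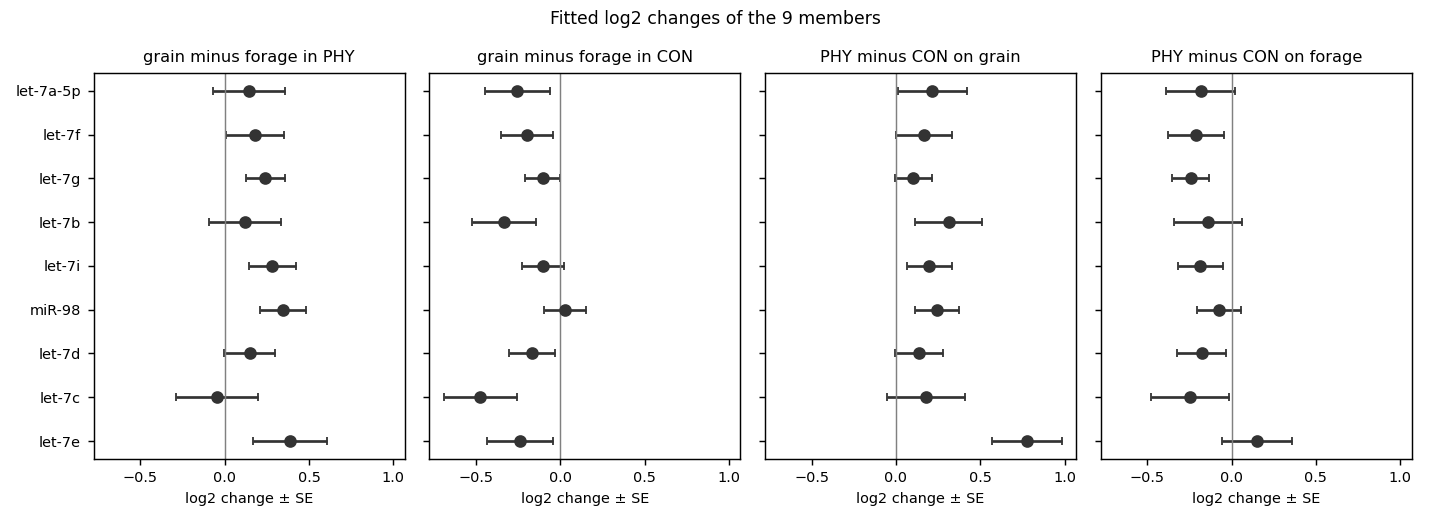
Log2 change ± SE of the 9 members in 4 comparisons, grain minus forage in PHY and in CON, and PHY minus CON on grain and on forage, from the edgeR fit. Most points are right of 0 for grain minus forage in PHY and for PHY minus CON on grain, and left of 0 in the other panels, with bta-let-7e on grain, at 0.78, the largest.

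PHY against CON on the grain diet showed the largest single member difference. All 9 members were above 0 in PHY (50.2% of all miRNAs were above 0 and 49.8% below), with a median log2 difference of 0.20 against 0.00 over all. edgeR called 0 of 9, as 0% of the 468 were called, and 1 member had an unadjusted p under 0.05, where 6.84% of all did (4.7% higher and 2.14% lower in PHY). bta-let-7e had 797, 1077, 1016 and 1329 CPM in HG_PHY, against 430.2, 534, 607, 917 and 588 CPM in HG_CON. Of the PHY libraries 3 were above every control library, and HG_CON 4 reached above HG_PHY 1, so that the groups overlapped. The log2 difference was 0.78 ± 0.21 (SE), rank 2 by p among the 468 (edgeR, adjusted p = 0.277). DESeq2 gave an adjusted p of 0.0668, and without HG_CON 4 the difference was 0.96 with an edgeR adjusted p of 0.0189. This was the only call of a member among all alternatives run. The adjusted p ranged from 0.0189 to 0.482 over 26 alternatives.

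The share of bta-let-7e within the family is given without a test. Of the raw counts of the 9 members it took 0.662% to 0.886% in HG_PHY and 0.681% to 0.735% in FD_PHY, against 0.432% to 0.748% in HG_CON and 0.433% to 0.688% in FD_CON. The other 8 members differed on grain by between 0.10 (bta-let-7g) and 0.31 (bta-let-7b), with adjusted p-values of 0.677 or more. Groups of PHY and CON on grain separated in 0 of 9 members and in 2.56% of all.

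On forage, 8 of 9 members were below 0 in FD_PHY against FD_CON (55.6% of all miRNAs were below 0 and 44.4% above), with a median of -0.18 against -0.04 over all, and bta-let-7e was the exception at 0.15 ± 0.21. Without FD_PHY 4 bta-let-7e was at -0.02, bta-let-7a-5p at -0.40, bta-let-7b at -0.38, bta-let-7c at -0.43 and bta-let-7f at -0.36, against -0.18, -0.14, -0.25 and -0.21 for the last 4 with all libraries. With each of the 18 libraries left out in turn, bta-let-7a-5p ranged from -0.40 to -0.06 and bta-let-7b from -0.38 to -0.01, the upper ends being those without FD_PHY 2. Library totals as the only scaling put the median of all at 0.12 and bta-miR-98 at 0.07. edgeR called 0 of 9 members, as 0% were called, and 1, bta-let-7g, had an unadjusted p under 0.05, where 4.7% of all did (2.14% higher and 2.56% lower in PHY). bta-let-7g had 18869.5, 19098, 18595 and 24182 CPM in FD_PHY, against 22979, 25847, 24688, 24406 and 21539 CPM in FD_CON. Of the PHY libraries 3 were below every control library, and FD_PHY 4 was among the controls. The log2 difference was -0.24 ± 0.11 (SE; edgeR, adjusted p = 0.929). Groups separated in 0 of 9 members and in 1.28% of all.

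The diet by supplement interaction tested the difference between the diet effects of the arms, PHY minus CON. It was positive for 9 of 9 members (56.4% of all miRNAs were above 0 and 43.6% below), between 0.32 and 0.63 with a median of 0.38, against 0.04 over all. edgeR called 0 of 9, as 0% were called, and 2 members, bta-let-7e (0.63 ± 0.29) and bta-let-7g (0.35 ± 0.15), had an unadjusted p under 0.05, where 2.14% of all did (1.28% higher and 0.855% lower). Without FD_PHY 4, 6 of 9 members had an unadjusted p under 0.05, where 5.19% of the 482 miRNAs then tested did, and 0 were called. bta-let-7a-5p was then at 0.62 and bta-let-7b at 0.70, against 0.40 and 0.45 with all libraries. Over the 18 libraries left out in turn this count ran from 0 to 6 members. The adjusted p with all libraries was 0.997 for each of the 9 members. The diet effect was therefore not shown to differ between the arms for any member. Library totals as the only scaling moved the median of all to -0.14, and the interaction of each member stayed above 0 in the alternatives run. The comparisons share libraries, so that they are not independent of each other.

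The passenger strands were scarce. let-7a-3p averaged 463 ± 79.7 CPM, hsa-let-7i-3p 71.5 ± 12.3, hsa-let-7d-3p 51.2 ± 8.71 and hsa-let-7c-3p 1.30 ± 0.85 CPM (SD, n = 18 each), where hsa marks a human entry of the authors' reference. The median ratio of guide to passenger reads over the libraries was 87.5 for bta-let-7a-5p, 35.7 for bta-let-7d, 132 for bta-let-7e, 107 for bta-let-7i and 4969 for bta-let-7g. Of 9 listed passenger strands 8 were tested and 0 were called in any comparison. Their median log2 change in CON was -0.24, with 3 above and 5 below 0, and in PHY 0.08, with 5 above and 3 below. hsa-let-7d-3p stood at -0.29 ± 0.12 over both arms (edgeR, adjusted p = 0.317), while bta-let-7d itself was at -0.01 ± 0.10.

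The 7 tested neighbours from the miR-99, miR-100 and miR-125 families had a median log2 change of -0.17 over both arms, with 6 below 0 and 0 called. miR-125b stood at 1427 ± 213 CPM on grain and 1929 ± 419 CPM on forage (SD, n = 9 each), a log2 change of -0.43 ± 0.13 (edgeR, adjusted p = 0.165). miR-125a was at -0.40 ± 0.12 (adjusted p = 0.189), whereas bta-let-7e, from the same chromosome 18 cluster, was at 0.07 ± 0.15. Across the 18 libraries bta-let-7c had a Spearman's rho of 0.66 with miR-99a-5p, whose gene lies beside MIRLET7C, and the same 0.66 with miR-100, whose gene lies on chromosome 15. Its rho with miR-125b, which has genes on both chromosomes, was 0.63. bta-let-7e had -0.33 with miR-99b and 0.10 with miR-125a, its neighbours on chromosome 18. These correlations, like those below, describe libraries that share a scaling and a family of reads.

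The members did not vary alike. Of 36 member pairs, 32 had a Spearman's rho above 0 across the 18 libraries, from -0.38 to 0.99 with a median of 0.60. bta-let-7a-5p and bta-let-7f moved closest (0.99), followed by bta-let-7a-5p and bta-let-7b (0.94) and bta-let-7b and bta-let-7f (0.92). let-7a, let-7f and let-7d have genes side by side on chromosome 8, and bta-let-7d with bta-let-7f had 0.90. No gene of let-7b lies beside a gene of let-7f. bta-let-7f and bta-miR-98, with neighbouring genes on chromosome X, had 0.67. The part of gene order and of shared reads in these values was not tested. bta-let-7i stood apart, with -0.38 against bta-let-7c and 0.37 against bta-miR-98. Outside the family, the most similar profiles among 261 miRNAs of at least 10 CPM were miR-423-5p for the sum of the 9 members (0.80), miR-218 for bta-let-7a-5p (0.82), miR-151-5p for bta-let-7b (0.87), miR-193a-5p for bta-let-7e (0.85), miR-423-5p for bta-miR-98 (0.80) and hsa-miR-99b-3p for bta-let-7i (0.83). miR-221 (0.82) and miR-222 (0.80), which come from 1 transcript, were also near bta-let-7i.

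**Figure D4:**
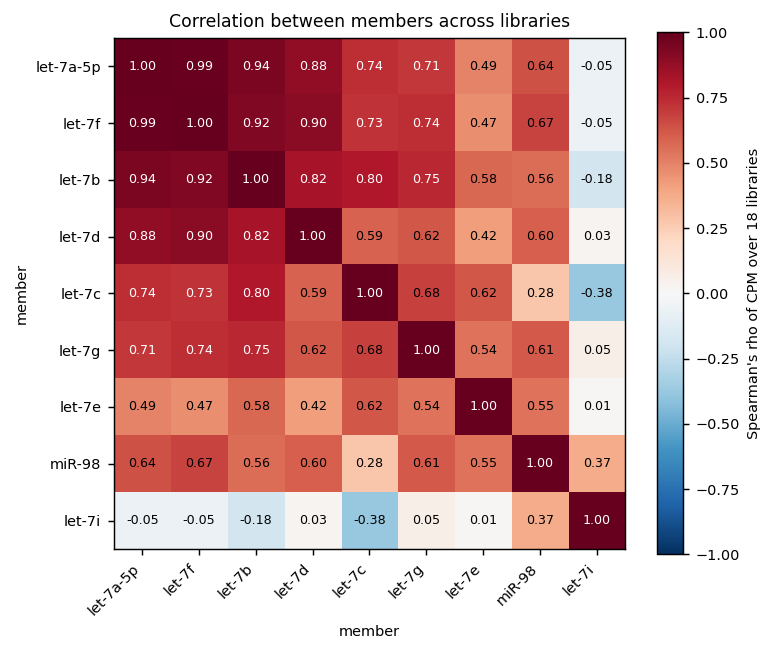
Spearman's rho of CPM over 18 libraries for each pair of members, in colour and number. bta-let-7a-5p, bta-let-7f, bta-let-7b and bta-let-7d form a block of high values and bta-let-7i has values from -0.38 to 0.37.

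Several members also moved with the yield of the libraries. The share of all reads counted to miRNAs ran from 27.1% to 48.7%. Over the 18 libraries its Spearman's rho with the CPM was 0.73 for bta-let-7b, 0.69 for bta-let-7g, 0.67 for bta-let-7d, 0.66 for bta-let-7a-5p and bta-let-7f, 0.65 for bta-let-7c, 0.46 for bta-let-7e, 0.32 for bta-miR-98 and -0.35 for bta-let-7i. The median over all 468 miRNAs was 0.03. FD_CON 2 had the highest share of all, 48.7%, yet it held the highest level of its group for 1 of 9 members. Its family share of raw counts, 10.9%, was the lowest in FD_CON. FD_PHY 4, the high forage library, had 44.0% of its reads counted, against 27.1% to 33.5% in the other FD_PHY libraries, and HG_PHY 1, the low grain library, had 30.4%, and was the lowest of the HG_PHY libraries in this share. The part of this in the group differences was not tested.

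**Figure D5:**
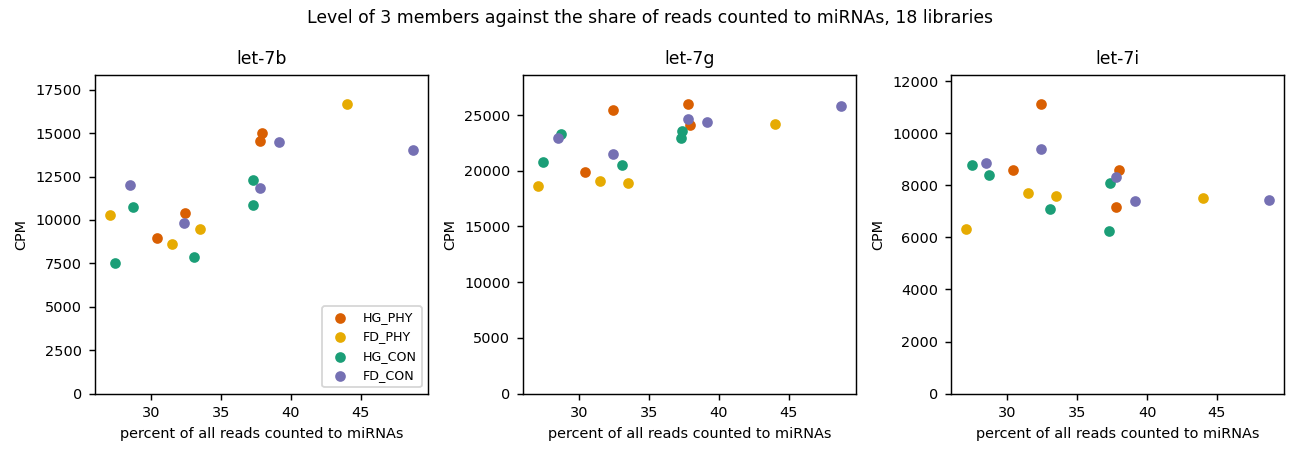
CPM of bta-let-7b, bta-let-7g and bta-let-7i against the percent of all reads counted to miRNAs, 1 point for each of 18 libraries, coloured by group. bta-let-7b (rho 0.73) and bta-let-7g (0.69) increase along the axis and bta-let-7i (-0.35) does not.

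Counted reads lay between 5.74 and 15.2 M per library, of 19.5 to 42.7 M in all, so that even bta-let-7e rested on at least 2718 reads. Marker miRNAs were read beside the members. Epithelial markers, miR-205 and the miR-200 family, summed to 58585 ± 5975 CPM in HG_PHY and 54368 ± 2552 CPM in FD_PHY (SD, n = 4 each), and to 61252 ± 7694 CPM in HG_CON and 62849 ± 6323 CPM in FD_CON (SD, n = 5 each). The muscle and mesenchymal list (miR-1, miR-133a, miR-133b, miR-143, miR-145 and miR-206) summed to 107082 ± 4023 CPM in HG_PHY and 143220 ± 16104 CPM in FD_PHY (SD, n = 4 each), and to 118047 ± 13462 CPM in HG_CON and 179365 ± 67012 CPM in FD_CON (SD, n = 5 each). miR-143 supplied most of it, and miR-133b had 0 reads in HG_PHY and 50 in all. All 4 tested muscle miRNAs were below 0 over both arms (median -0.38, 0 called). Of these, miR-143 (-0.51) and miR-145 (-0.46) had an unadjusted p under 0.05 (edgeR), where 10.7% of all miRNAs did (6.41% lower on grain). FD_CON 2 held the most of the list, with 297900 CPM. Across libraries bta-miR-98 correlated with miR-143 at -0.63 and with miR-145 at -0.65, and bta-let-7c with miR-143 at 0.30. These were the extremes with miR-143, and the other members lay between -0.28 (bta-let-7i) and -0.04 (bta-let-7b). Leukocyte markers summed to 3245 CPM in HG_PHY, 3931 in FD_PHY, 3669 in HG_CON and 3434 in FD_CON, a sum of miRNAs that differed in sign on grain in PHY, with miR-223 at 0.60 (unadjusted p = 0.0595, edgeR) and miR-142-3p at -0.52. Endothelial markers summed to 11599 CPM in HG_PHY, 13792 in FD_PHY, 13310.1 in HG_CON and 14745 in FD_CON, and erythroid markers to 10308 CPM in HG_PHY, 9852 in FD_PHY, 12542 in HG_CON and 9679 in FD_CON. The part of these cell types in the members' values was not tested.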

How the data were processed

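The authors deposited, per the file headers, raw read counts for each miRNA name, expected counts adjusted for reads that map to several places or names, distinct reads, and RPM scaled by all reads; RPM served here only to find read totals. The series table holds a normalized signal by the authors, and multiplying by 1 size factor per library gave whole reads for 100% of values within 0.01 reads, each equal to the rounded adjusted count. Per the submitters' processing notes, bcl2fastq 2.20 and DESeq2 were used; no source used here names the aligner, the counter or the genome build. RNA was extracted with a NucleoSpin miRNA kit and libraries made with a NETflex Small RNA-Seq kit, per the labels' protocols.

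The 966 names were merged to 824 miRNAs (overlap of at least 15 nt, or same-named bovine and human entries with totals within 5%), each counted under the name with the most reads, because names for the same miRNA count the same reads. edgeR 4.0.16 (R 4.3.3) ran quasi-likelihood tests on raw counts with TMM, filterByExpr (468 kept), 4 group means, no block, two-sided, adjusted by Benjamini-Hochberg at 0.05. DESeq2 1.42.0 and limma 3.58.1 (log2 of the deposited table + 1) were alternatives. The test was also run on simulated data with independent libraries, which does not cover libraries that share a cow. Labels do not say which replicate numbers share a cow, so the tests take the 18 libraries as independent although they come from 9 cows. Forage and grain libraries of 1 number correlated at -0.02 to 0.39 around their group means. The own number was the best match for CON 5 (0.39, highest other 0.05) and PHY 4 (0.19, highest other 0.04), and not for the rest. Such correlations neither show nor exclude that a number marks a cow. Replicate pairs differed by far more than counting noise (chi-square per degree of freedom at least 110.6), so none was taken as a copy. Coordinates are not printed because the build is not named, and chromosomes come from RefSeq (ARS-UCD2.0). All 9 members are named, and the most similar miRNAs were taken from the 5 with the highest rho for each profile. The members and the lists were chosen with earlier results of these data known. Markers miR-203 and miR-208 were looked for and had no entry under these names, so that the marker values do not hold them. The mature sequences were not used here.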

Additional observations from a re-analysis of the deposited data

Results flagged for a closer look

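In 40 groups of 4 or 5 libraries, covering the 9 members and the family share, 3 held a library far from the rest by Dixon's criterion, and chance alone gives about 1 in 20. let-7e in FD_PHY 4 stood at 1089 CPM, against 707 to 715 CPM in the other 3 FD_PHY libraries. let-7g in FD_PHY 4 stood at 24182 CPM (24180 to 4 digits), against 18595 to 19098 CPM in the others. let-7i in FD_PHY 3 stood at 6338 CPM, against 7518 to 7699.9 CPM in the others.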

How the results depend on the processing

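Of 1494 member log2 changes recomputed under 30 alternatives, 1463 kept their direction, 31 reversed (23 of them with 1 library left out) and 1 was called, let-7e between PHY and CON on grain without HG_CON 4. With library totals alone, the median of all miRNAs over both arms moved to 0.094. The reversed values there were 0.040 for let-7a-5p, 0.084 for let-7d and 0.088 for let-7f. In CON they were 0.014 for let-7d, 0.084 for let-7g and 0.085 for let-7i, and on forage PHY minus CON 0.066 for miR-98. With adjusted counts let-7c in PHY was 0.0023. With 1 library left out, members that reversed ranged over both arms from -0.12 to 0.057 (let-7a-5p), -0.17 to 0.014 (let-7b), -0.067 to 0.040 (let-7d), -0.018 to 0.16 (let-7e) and -0.064 to 0.070 (let-7f). In CON miR-98 ranged from -0.015 to 0.069. In PHY let-7b ranged from -0.0032 to 0.36 and let-7c from -0.18 to 0.14. On forage let-7e ranged from -0.021 to 0.23 and miR-98 from -0.21 to 0.039. The cause was not tested. Over both arms 1 miRNA was called, and 2 with library totals alone, with every name, with limma-trend on the authors' table and with recovered reads, 3 with no filter and 5 with DESeq2. With the replicate number as a block, 4 miRNAs were called over both arms, likewise 4 with the block on adjusted counts, and 0 members. PHY against CON on forage had 1 with no filter and 1 with DESeq2, and on grain 2 with DESeq2. With 1 library left out, calls ranged from 0 to 3 over both arms, 0 to 1 on forage and 0 to 2 on grain, with 0 to 1 members on grain. The family share was 12.2% of raw counts and 8.22% of adjusted counts without the 2 most abundant miRNAs. The alternatives on recovered reads and on the block with adjusted counts were chosen after seeing the data.

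With 4 or 5 libraries a group and 468 miRNAs tested, a difference that did not pass is not shown to be absent.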
